A study of Mus musculus with 4 samples.

Results

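The Schlafen genes form a family that in the mouse lies in 1 cluster on chromosome 11. The 7 members described here, Slfn1, Slfn2, Slfn3, Slfn4, Slfn5, Slfn8 and Slfn9, were taken by gene symbol from the 31748 symbols of the count tables. Of these members, 6 were among the 12752 genes with enough counts for a test, and Slfn4 was not. Schlafen proteins are known for restraining the growth of lymphocytes, for binding and cutting or protecting transfer RNA, and for their induction by type I interferon. They are grouped by length into short members (Slfn1 and Slfn2), intermediate members (Slfn3 and Slfn4) and long members with an added part that resembles a helicase (Slfn5, Slfn8 and Slfn9). In T cells the family is best known through Slfn2, since mice with a defective Slfn2 lose the resting state of their T cells.

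The libraries were bulk RNA-seq of mouse T cells of genotype TEaMthfd2 KO (KO, 2 libraries) and TEaWT (WT, 2 libraries). Both groups carried TEa, a T cell receptor transgene that recognises a BALB/c peptide presented by a C57BL/6 class II molecule, and the KO cells lacked Mthfd2, a folate enzyme of the mitochondria that feeds one-carbon units into nucleotide synthesis. By the labels, CD4+ T cells were obtained by positive magnetic selection from spleens of mice aged 8 weeks and were kept for 3 days with mitomycin-treated antigen-presenting cells (APCs) of F1 (BALB/c x C57BL/6) mice, also aged 8 weeks. The comparison of KO with WT asks which transcripts differ in alloreactive T cells without this enzyme. The sources used here do not give how and in which cells the Mthfd2 allele was deleted, whether animals were pooled, or whether the T cells were separated from the APCs before RNA was extracted. Nothing in the labels says that replicates are separate animals or cultures, so p-values measure only the spread between these libraries, and that spread may be technical.

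Libraries held between 14191401 and 15955863 counts. Mthfd2 was at 222 and 252 CPM (counts scaled to a common library total) in KO libraries, against 280 and 280 CPM in WT libraries, a log2 fold change of -0.24 ± 0.14 (SE, adjusted p = 0.324 by edgeR). The deleted part of the gene is not known here, so this level does not check the labels. Cd8a had between 3.16 and 3.20 times the counts of Cd4 in KO libraries and between 3.10 and 4.00 times in WT libraries, so the label of CD4+ cells is not borne out by these markers. The TEa receptor uses the beta segment Trbv19, whose share of all Trbv counts reached 7.37% in KO libraries (95% Wilson interval 6.54 to 8.30%) and 8.39% in WT libraries (7.30 to 9.63%). Whether the transcripts described are those of TEa cells is therefore not known. WT replicate 1 stood apart: on the first principal component, which held 69% of the variance, the KO libraries were at 43.8 and 40.9, WT replicate 1 at -65.1 and WT replicate 2 at -19.6. The members and the gene lists are therefore given with and without it.

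The 7 members lay within 264 kb of chromosome 11 (GRCm38, 82951349 to 83215154), all annotated as protein-coding. From one end to the other the order was Slfn5 (82951349 to 82964840, plus strand), Slfn9 (82978390 to 82991830, minus), Slfn8 (83002158 to 83020810, minus), Slfn2 (83065112 to 83070678, plus), Slfn1 (83116849 to 83122670, plus), Slfn4 (83175186 to 83190216, plus) and Slfn3 (83191330 to 83215154, plus). The coding sequences ran to 1011 bases in Slfn1 and 1134 in Slfn2, to 1920 in Slfn3 and 1806 in Slfn4, and to 2652 in Slfn5 and 2730 in both Slfn8 and Slfn9. Within this locus 2 pairs were close copies: Slfn8 and Slfn9 shared 2531 of 2730 aligned coding bases (92.7%), and Slfn3 and Slfn4 shared 1655 of 1785 (92.7%). The short pair, Slfn1 and Slfn2, shared 71.9%.

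The bases before the annotated starts are shown for the 2 pairs whose levels are compared most closely below, the near-identical Slfn8 and Slfn9 and the short Slfn1 and Slfn2. Each stretch is the 250 bases before a RefSeq start (GRCm38.p6), printed 5′ to 3′ on the strand of the gene. Capitals mark matches to GAAANNGAA, the core of the interferon-stimulated response element, on either strand. The windows are chr11:83020811-83021060 (minus strand) for Slfn8, chr11:82991831-82992080 (minus) for Slfn9, chr11:83064862-83065111 (plus) for Slfn2 and chr11:83116570-83116819 (plus) for Slfn1.
Slfn8: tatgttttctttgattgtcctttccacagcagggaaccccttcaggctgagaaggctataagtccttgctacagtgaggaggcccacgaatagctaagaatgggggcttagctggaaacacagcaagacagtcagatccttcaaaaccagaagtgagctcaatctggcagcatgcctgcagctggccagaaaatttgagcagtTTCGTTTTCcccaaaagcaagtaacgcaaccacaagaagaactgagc
Slfn9: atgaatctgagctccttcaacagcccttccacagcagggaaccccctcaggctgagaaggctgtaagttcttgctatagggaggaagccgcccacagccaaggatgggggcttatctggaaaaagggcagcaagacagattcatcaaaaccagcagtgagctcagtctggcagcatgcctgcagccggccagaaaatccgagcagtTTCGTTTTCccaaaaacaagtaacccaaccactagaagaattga
Slfn2: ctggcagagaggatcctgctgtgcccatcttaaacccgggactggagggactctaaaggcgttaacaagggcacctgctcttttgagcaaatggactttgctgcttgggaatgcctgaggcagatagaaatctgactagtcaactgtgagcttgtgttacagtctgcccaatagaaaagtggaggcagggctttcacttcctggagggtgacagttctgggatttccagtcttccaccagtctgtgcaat
Slfn1: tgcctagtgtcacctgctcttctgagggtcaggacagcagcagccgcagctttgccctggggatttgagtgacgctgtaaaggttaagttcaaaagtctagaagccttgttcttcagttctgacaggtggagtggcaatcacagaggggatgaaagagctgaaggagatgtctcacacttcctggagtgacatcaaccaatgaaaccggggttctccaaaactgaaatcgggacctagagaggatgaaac

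Slfn8 and Slfn9 each carried 1 match, in the same letters, TTCGTTTTC, which read GAAAACGAA on the other strand. The match began 47 bases before the start used for Slfn8 and 44 before that of Slfn9. Slfn8 has another RefSeq start, and the same match began 135 bases before it. The 250 bases before that other start held 88 bases of annotated exon. The printed stretches of Slfn8 and Slfn9 were identical at 206 of 242 aligned bases (85.1%), while the other pairs of members shared between 51.8% and 64.2%. Slfn5 had 2 matches, 155 and 132 bases before its RefSeq start. That start lies inside the span of Slfn5 given above. The 250 bases before it (82951852 to 82952101) held 117 bases of annotated exon. The windows of Slfn1, Slfn2, Slfn3 and Slfn4 held none. The same motif was found in 8.56% of all 32851 RefSeq promoters of 300 bases (250 before and 50 after the start). TTCNNNGAA, the core of the gamma-activated site, was in 8.30% of all promoters and in the window of no member. All 7 members had a window in the table. A match is a description of letters, and its absence speaks only for these windows.

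Slfn2 had the highest level of the family in every library, and Slfn1 the next, when CPM were divided by the length of the merged exons in kilobases (CPM per kb). Slfn2 averaged 151 ± 12.9 CPM per kb in KO libraries and 258 ± 80.0 in WT libraries (SD, n = 2 each). Slfn1 averaged 55.2 ± 2.38 CPM per kb in KO libraries and 29.6 ± 12.8 in WT libraries. These 2 ranked first and second in all 4 libraries, although in WT libraries the lowest value of Slfn1, 20.5 CPM per kb, lay below the highest of Slfn8, 20.7. Slfn8 was at 8.26 ± 1.54 CPM per kb in KO libraries and 16.2 ± 6.41 in WT libraries. Slfn3 was at 9.32 ± 2.13 CPM per kb in KO libraries and 5.69 ± 0.168 in WT libraries. Slfn9 was at 7.08 ± 0.277 CPM per kb in KO libraries and 4.14 ± 2.98 in WT libraries. In KO libraries the ranges of Slfn3 and Slfn8 overlapped, as did those of Slfn8 and Slfn9. In WT libraries the range of Slfn9 overlapped those of Slfn3 and Slfn5, which did not overlap each other. Slfn5 averaged 0.523 ± 0.0665 CPM per kb in KO libraries and 3.00 ± 2.88 in WT libraries, and Slfn4 was lowest in every library, at no more than 0.107 CPM per kb in KO libraries and 0.462 in WT libraries.

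**Figure D1:**
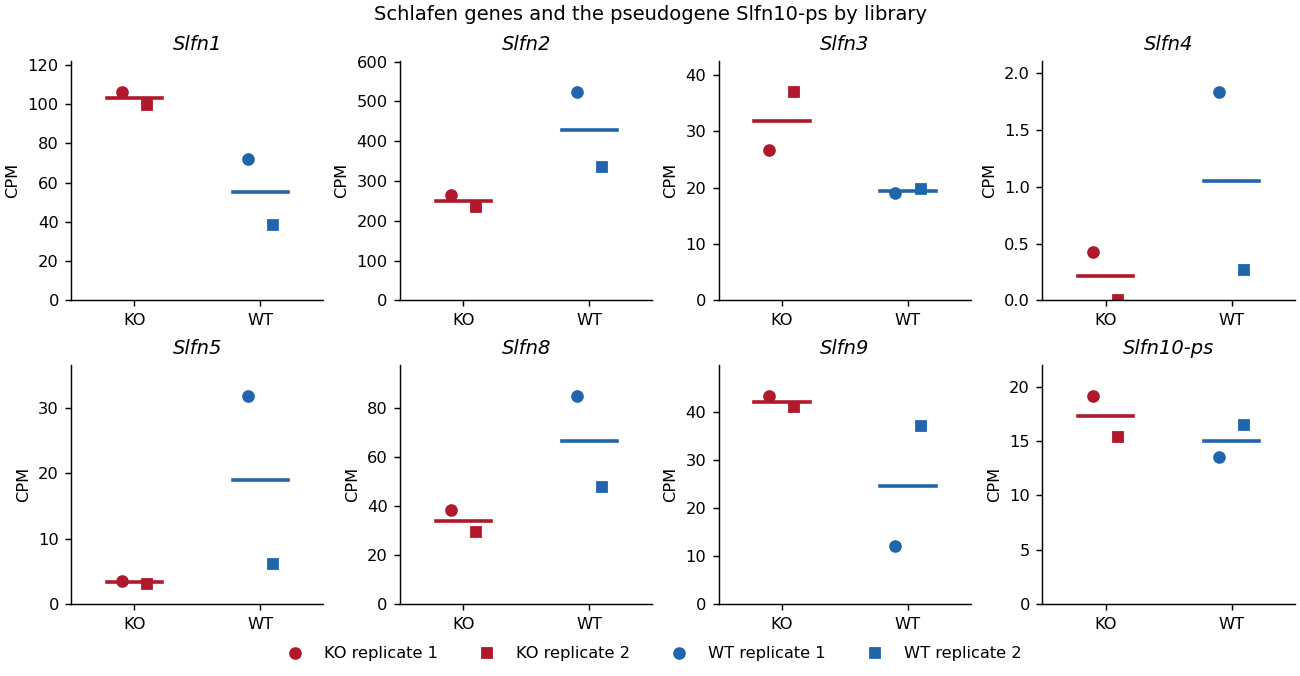
Level of each Schlafen gene and of the pseudogene Slfn10-ps in CPM (vertical axis from 0, a separate scale for each gene) in KO and WT libraries. Points are single libraries (circle, replicate 1; square, replicate 2) and lines are group means; KO libraries lie above both WT libraries for Slfn1, Slfn3 and Slfn9 and below both for Slfn2, Slfn5 and Slfn8, with WT replicate 1 far from WT replicate 2 for Slfn5 (31.8 and 6.08 CPM) and Slfn9 (12.1 and 37.3 CPM).

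None of the 6 tested members passed the test of KO over WT with all 4 libraries, edgeR's quasi-likelihood test at an adjusted p under 0.05, which called 3.95% of the 12752 genes (2.39% higher and 1.56% lower in KO). At an unadjusted p under 0.05 there were 2 members with positive and 3 with negative fold changes, against 12.8% and 12.7% of all genes tested. DESeq2 called 4 of the 7 members, 1 higher and 3 lower, where it called 11.9% of all genes; limma-voom called 0 of 6, where it called 4.65%. For all 6 tested members both KO libraries were on one side of both WT libraries, above them for Slfn1, Slfn3 and Slfn9 and below them for Slfn2, Slfn5 and Slfn8. The same held for 59.9% of all genes tested (29.8% above and 30.1% below), so such a separation was common in these libraries. Fewer cells of a type and less RNA per cell cannot be told apart in bulk samples, for these genes as for the markers given further on.

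Slfn1, a short member whose forced expression in mice restrains the growth of T cells, was higher in both KO libraries than in either WT library. It had 1499 and 1391 counts (106 and 99.7 CPM) in KO libraries, against 1179 and 566 counts (72.0 and 38.3 CPM) in WT libraries. The KO libraries differed by 1.06 times and the WT libraries by 1.88 times. The log2 fold change was 0.90 ± 0.29 (SE, n = 2 per group), with an adjusted p of 0.121 by edgeR. Slfn1 was the only member that passed without WT replicate 1: it then rose in KO, with a log2 fold change of 1.43 and an adjusted p of 0.0141 by edgeR, in a fit that called 3.15% of all genes. Without WT replicate 2 the values were 0.52 and 0.0700 by edgeR. In these fits the lone WT library is assumed to vary like the KO libraries. With all 4 libraries Slfn1 was also called by DESeq2 (0.90, adjusted p = 0.0272) and by edgeR with no filter (0.89, adjusted p = 0.0450), so its call turns on the tool and filter as well as on the WT library.

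Slfn2, the short member that mouse T cells need to stay at rest and that shields transfer RNA from cleavage, was lower in both KO libraries. It had 3762 and 3286 counts (266 and 236 CPM) in KO libraries, against 8559 and 4950 counts (523 and 335 CPM) in WT libraries. WT replicate 1 was 1.56 times WT replicate 2, while the KO libraries differed by 1.13 times. The log2 fold change was -0.77 ± 0.23, with an adjusted p of 0.0983 by edgeR. Without WT replicate 1 it was -0.41 with an adjusted p of 0.246, and without WT replicate 2 it was -1.05 with an adjusted p of 0.00383, both by edgeR. In that last fit, which called 19.2% of all genes, Slfn2 fell.

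The short pair therefore had opposite signs, and the ratio of Slfn2 to Slfn1 was lower in both KO libraries than in either WT library by a wide margin. The count ratio was 2.51 and 2.36 in KO libraries, against 7.26 and 8.75 in WT libraries. Per kb the ratio was 2.81 and 2.65 in KO libraries, against 8.13 and 9.80 in WT libraries. Slfn2 made up 54.9% (95% Wilson interval 53.7 to 56.1) and 52.9% (51.6 to 54.1) of the counts of the 7 members in KO libraries, against 70.2% (69.4 to 71.0) and 69.1% (68.0 to 70.2) in WT libraries. Slfn1 made up 21.9% (20.9 to 22.9) and 22.4% (21.4 to 23.4) in KO libraries, against 9.67% (9.16 to 10.2) and 7.90% (7.30 to 8.55) in WT libraries. These intervals cover counting error only. In both shares the libraries of a group lay nearer to each other than to the other group, WT replicate 1 included. For Slfn1 the intervals of the WT libraries did not overlap. The ratio and these shares were chosen after the values were seen and are given with no test. Both KO libraries lay above both WT libraries for Slfn1 and below them for Slfn2. The ratio therefore had to separate the groups, and that separation adds no evidence. The summed level of the 7 members was 484.3 and 446 CPM in KO libraries, against 744 and 484.1 CPM in WT libraries, so KO replicate 1 and WT replicate 2 were level in the sum while they differed in its make-up.

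**Figure D2:**
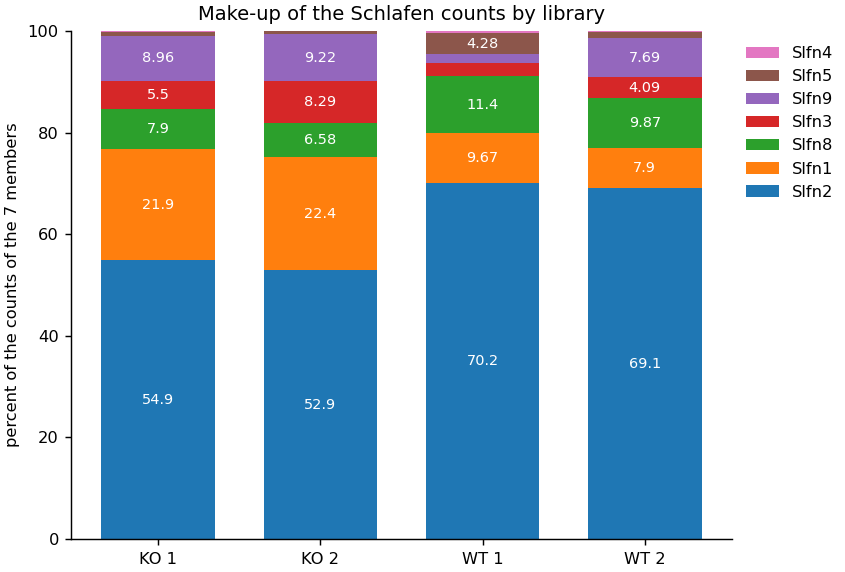
Make-up of the counts of the 7 Schlafen genes in each library, as percent of their summed counts (vertical axis, 0 to 100%), with 1 stacked bar per library. Slfn2 takes 52.9 to 54.9% in KO libraries and 69.1 to 70.2% in WT libraries, Slfn1 takes 21.9 to 22.4% in KO libraries and 7.90 to 9.67% in WT libraries, and Slfn9 is thin in WT replicate 1 alone (1.62%).

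Slfn3, an intermediate member, was higher in both KO libraries and was the member with the most even WT libraries. It had 377 and 515 counts (26.7 and 36.9 CPM) in KO libraries, against 311 and 293 counts (19.0 and 19.8 CPM) in WT libraries. The log2 fold change was 0.71 ± 0.22, with an adjusted p of 0.112 by edgeR. It was 0.69 (adjusted p = 0.202 by edgeR) without WT replicate 1 and 0.75 without WT replicate 2, and it moved more with the KO libraries, to 0.93 without KO replicate 1 and 0.46 without KO replicate 2. Slfn4, its close copy and a gene known from macrophages and other myeloid cells, had 6 and 0 counts in KO libraries, against 30 and 4 counts in WT libraries. The groups overlapped, most counts came from WT replicate 1, and the 0 counts of KO replicate 2 allow a level of up to 0.215 CPM. With the counts of Slfn3 and Slfn4 summed, the log2 fold change was 0.65 ± 0.22 (adjusted p = 0.130 by edgeR).

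Slfn5, a long member induced by interferon in mouse cells, was lower in both KO libraries, and WT replicate 1 held most of its counts. It had 51 and 42 counts (3.61 and 3.01 CPM) in KO libraries, against 521 and 90 counts (31.8 and 6.08 CPM) in WT libraries. The WT libraries thus differed by 5.23 times, and those of KO by 1.20 times. A ratio of WT replicate 1 to WT replicate 2 of at least 2 was found for 4.81% of all genes. The log2 fold change was -2.52 ± 0.73, with an adjusted p of 0.0951 by edgeR. It was -0.87 without WT replicate 1 and -3.26 without WT replicate 2, each from a fit that rests on 1 WT library. The annotated antisense transcript Slfn5os overlaps 559 bases of the exons of Slfn5, and the use of strand in counting is not stated; Slfn5os itself had 1 count in all 4 libraries together.

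Slfn8 and Slfn9, the near-identical long members, differed in opposite directions. Slfn8 had 541 and 409 counts (38.3 and 29.3 CPM) in KO libraries, against 1389 and 707 counts (84.9 and 47.8 CPM) in WT libraries. Slfn9 had 614 and 573 counts (43.4 and 41.1 CPM) in KO libraries, against 198 and 551 counts (12.1 and 37.3 CPM) in WT libraries. For Slfn8 WT replicate 1 was the highest of the 4 libraries, and for Slfn9 it was the lowest, at 0.325 times WT replicate 2. A ratio of 0.5 or less between these libraries was found for 6.46% of all genes. The log2 fold change of Slfn8 was -0.97 ± 0.29 (adjusted p = 0.104 by edgeR), and that of Slfn9 was 0.78 ± 0.46 (adjusted p = 0.329 by edgeR). Without WT replicate 1 they were -0.50 and 0.19, and without WT replicate 2 they were -1.32 and 1.81, all by edgeR. Each of these fits rests on 1 WT library. The count ratio of Slfn8 to Slfn9 was 0.881 and 0.714 in KO libraries, against 7.02 and 1.28 in WT libraries. WT replicate 2 was thus nearer to the KO libraries in this ratio than to WT replicate 1. This ratio, too, was chosen after the values were seen.

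**Figure D3:**
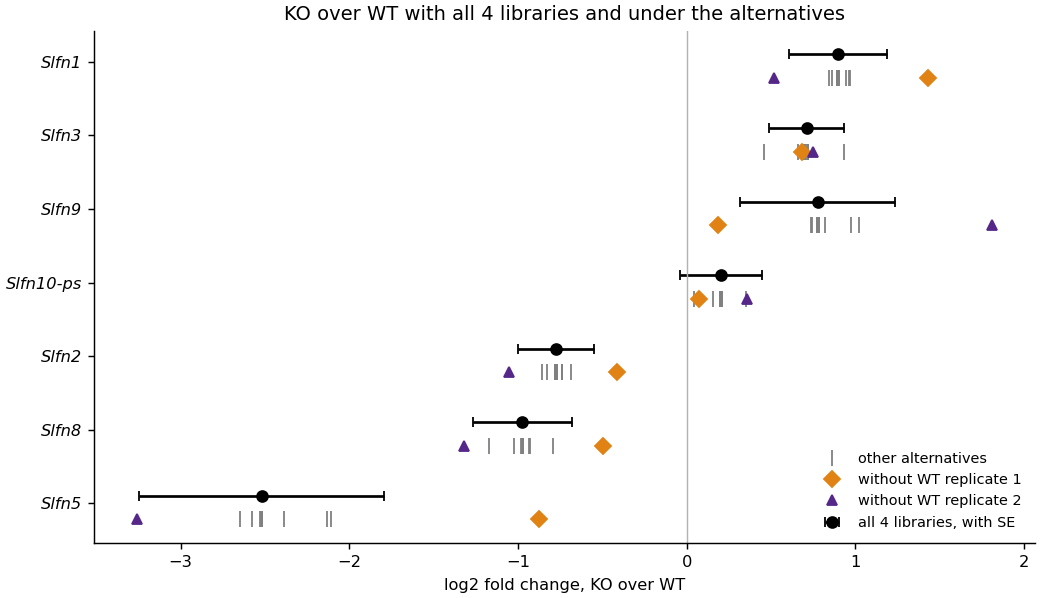
Log2 fold change of KO over WT (horizontal axis) for the 6 tested members and Slfn10-ps. Black points with bars are the values with all 4 libraries and their standard errors, diamonds leave out WT replicate 1, triangles leave out WT replicate 2 and grey ticks are the other alternatives; no point crosses 0, and the diamonds and triangles are farthest apart for Slfn5 (-0.87 and -3.26) and Slfn9 (0.19 and 1.81).

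Because close copies can exchange reads, the letters they share were counted in the annotated transcripts. Of all distinct stretches of 50 bases in Slfn8, 9.30% also occurred in Slfn9 and 10.1% in Slfn10-ps, a transcribed pseudogene of the same cluster, and 14.6% occurred in any other Schlafen gene. For Slfn9 the share found in any other Schlafen gene was 11.2%. At 100 bases these shares were 3.38% for Slfn8 and 3.71% for Slfn9, and at 150 bases they were 0 for Slfn8 and 1.46% for Slfn9, all with Slfn10-ps. Slfn3 shared 7.39% of its 50-base stretches with Slfn4 and 10.2% with genes outside the family, mostly the pseudogene Gm11427. Slfn2 shared 4.27%, all with Slfn4, Slfn1 shared 0.606%, and Slfn5 shared none with another Schlafen gene. The sources used here give neither the read length nor how multiply mapping reads were counted, so the values of Slfn8, Slfn9, Slfn3 and Slfn4 are uncertain to that extent. Slfn10-ps had 271 and 215 counts in KO libraries, against 222 and 244 counts in WT libraries (log2 fold change 0.20 ± 0.24, adjusted p = 0.639 by edgeR). With Slfn8, Slfn9 and Slfn10-ps summed, the level was 101 and 85.8 CPM in KO libraries, against 111 and 102 CPM in WT libraries. The log2 fold change of that sum was -0.18 ± 0.16 (adjusted p = 0.517 by edgeR). Slfn8 and Slfn9 had opposite signs, so their sum would lie between them with or without an exchange of reads. The sum therefore cannot show whether reads were exchanged, which was not tested.

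**Figure D4:**
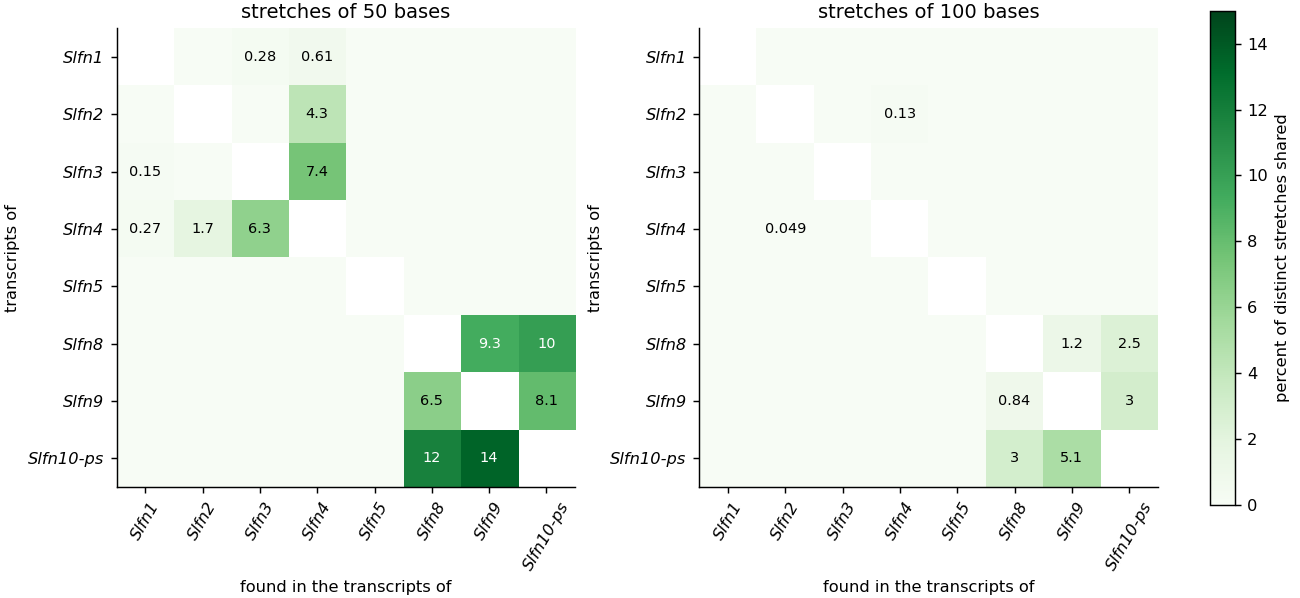
Percent of the distinct 50-base (left) and 100-base (right) stretches in the transcripts of the gene on the vertical axis that also occur in the transcripts of the gene on the horizontal axis; darker squares stand for higher percentages and empty squares for 0. Sharing lies in 2 blocks, 1 of Slfn8, Slfn9 and Slfn10-ps and 1 of Slfn1 to Slfn4, and Slfn5 is in neither.

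The members also differed in which other genes had the most similar profile, measured as the Euclidean distance between log2 CPM profiles over the 4 libraries, each centred on its mean. For Slfn5 the nearest of the tested genes were Ifi213, Rtp4 and Irf7, all known as interferon-induced genes, at distances of 0.412, 0.430 and 0.458. For Slfn2 they were Ly6i (0.0453), Mfsd3 and Tnfrsf13c, the receptor of B cells for the survival factor BAFF. For Slfn8 they were Ly86 (0.0454), which encodes a surface protein of B cells and myeloid cells, Zfp94 and Slc38a7. For Slfn1 they were Hdc (0.0610), 9930111J21Rik2 and Gm7413, for Slfn3 Zfp128 (0.0534), Zfp3 and Ctxn1, and for Slfn9 Epb41l1 (0.0632), Cchcr1 and Gm14434. Some of these genes had few counts. Gm7413 was at 0.203 CPM in WT replicate 2 and Gm14434 at 0.183 CPM in WT replicate 1, each the level of 3 counts. Hdc, Epb41l1 and Ly6i reached no more than 1.98, 1.27 and 1.83 CPM in any library. Among the members themselves Slfn2 and Slfn8 were the closest pair, 0.268 apart, and Slfn5 and Slfn9 the farthest, 4.13 apart; Slfn8 and Slfn9 were 2.58 apart. With 4 libraries these distances describe the libraries and carry no test.

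WT replicate 1 was above the other 3 libraries for Slfn2, Slfn5 and Slfn8 and below them for Slfn3 and Slfn9, while Slfn1 was in between; 32.6% of all genes tested were highest and 31.9% were lowest in that library. In a list of 37 type I interferon-stimulated genes, of which 36 were tested, WT replicate 1 was the highest library for 35, and for 19 it was at least 2 times WT replicate 2. Their median level was 11.2 and 9.61 CPM in KO libraries, against 23.8 and 11.5 CPM in WT libraries. By edgeR 1 of the 36 fell (1.56% of all genes did), 0 rose and 35 were not called: Isg15, which encodes a ubiquitin-like modifier, had 2.05 and 1.72 CPM in KO libraries, against 19.0 and 8.86 CPM in WT libraries (-2.88 ± 0.46, adjusted p = 0.0397). At an unadjusted p under 0.05 there were 18 with a negative fold change, where 12.7% of all genes had one, and 0 with a positive one. DESeq2, which called 11.9% of all genes in either direction, called 10 lower and limma-voom 0. Without WT replicate 1 edgeR called 1 of 36 lower (3.15% of all genes in either direction), and without WT replicate 2 it called 23 of 37 lower (19.2%). The median log2 fold change of the list was -0.84, beside -0.00258 over all genes tested; it was -0.29 without WT replicate 1 and -1.20 without WT replicate 2. Slfn5 (-2.52 with all libraries, -0.87 without WT replicate 1) lay below the median in both fits, and Slfn2 and Slfn8 lay nearer to it, at -0.77 and -0.97 with all libraries and at -0.41 and -0.50 without WT replicate 1. Of 8 genes of interferon ligands, receptor chains and kinases, Ifna2 and Ifna4 had no count in any library and Ifnb1 had 2, both in WT replicate 1. Of the 5 tested, edgeR called 0, with 1 positive and 1 negative at an unadjusted p under 0.05, DESeq2 called 1 higher and 1 lower, and limma-voom called 0. Without WT replicate 1 edgeR called 0, and without WT replicate 2 it called 1 lower. The 2 with the lowest p were Ifnar1, a receptor chain (0.62, adjusted p = 0.0808 by edgeR), and Irf3, a transcription factor that starts interferon production (-0.62, adjusted p = 0.0925 by edgeR).

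**Figure D5:**
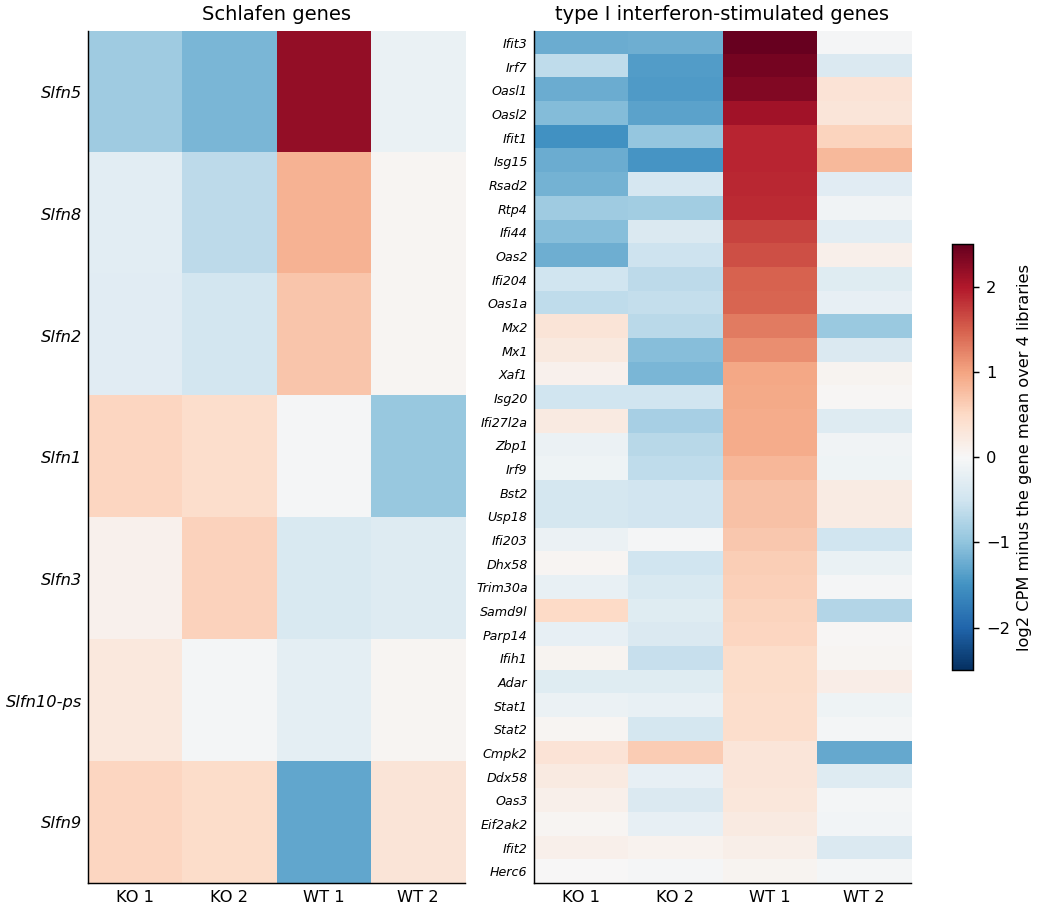
Profiles over the 4 libraries (columns, KO first) of the 6 tested Schlafen genes and Slfn10-ps (left) and of 36 type I interferon-stimulated genes (right). Colour is the log2 CPM of a gene in a library minus its mean over the 4 libraries, red above and blue below that mean; WT replicate 1 is red for Slfn5, Slfn8 and Slfn2 and is the highest library for 35 of the 36 interferon-stimulated genes, and is blue for Slfn9.

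Slfn2 is known in mice for keeping T cells at rest, and of 20 other genes tied to T cell rest, all tested, edgeR called 5 higher in KO and 0 lower with all 4 libraries, where it called 2.39% of all genes higher and 1.56% lower. The median log2 fold change of these 20 genes was 0.43 when WT replicate 1 was left out and 0.22 when WT replicate 2 was left out. Each of these 2 fits rests on 1 WT library. The genes did not all go one way: in the fit to all 4 libraries 13 of the 20 had a positive fold change. The other 7 had a negative one, from -0.14 to -0.70. The 4 with the largest change were Cdkn1b, an inhibitor of cyclin-dependent kinases (1.60), Tob1 (1.46) and Btg2 (1.40), which restrain proliferation, and Tcf7, a transcription factor of naive and memory T cells (1.00). The median of the list was 0.34 with all libraries, beside -0.00258 over all genes; Slfn1 was at 0.90 and Slfn2 at -0.77. Slfn2 is also known to shield transfer RNA from the nuclease angiogenin. Ang, Ang2, Ang4 and Ang6, the angiogenin genes matched to the tables, had 0 counts in all 4 libraries, which allows at most 0.215 CPM in KO libraries and 0.203 CPM in WT libraries. Of 7 tested genes of transfer RNA processing and protection, edgeR called 0, with 4 negative at an unadjusted p under 0.05, as 12.7% of all genes were. DESeq2 called 2 lower, where it called 11.9% of all genes in either direction, and limma-voom 0. The median of these 7 genes was -0.56 (-0.44 without WT replicate 1 and -0.62 without WT replicate 2). The 2 of them with the lowest p were Xpot, the export receptor of transfer RNA (-0.72, adjusted p = 0.0759 by edgeR), and Nsun2, which methylates transfer RNA (-0.56, adjusted p = 0.106 by edgeR).

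Summed markers of several other cell types were lower in KO libraries, as were Slfn2, Slfn5 and Slfn8. For comparison with the calls below, edgeR with all 4 libraries called 1.56% of all genes tested lower and 2.39% higher. The 7 B cell markers summed to between 360 and 423 CPM in KO libraries and between 729 and 1187 CPM in WT libraries, and 4 of them fell by edgeR (5 without WT replicate 1). The 5 MHC class II genes summed to between 1007 and 1176 CPM in KO libraries and between 2241 and 3780 CPM in WT libraries, and all 5 fell by edgeR, with and without WT replicate 1. Among the 7 neutrophil markers, Elane had no count. The 7 summed to between 0.212 and 0.860 CPM in KO libraries and between 1.28 and 13.3 CPM in WT libraries. The 13.3 CPM were those of WT replicate 1. None of these markers passed the filter of edgeR with all 4 libraries. DESeq2 tested 3 and called 1 lower, where it called 11.9% of all genes in either direction. The 9 macrophage and monocyte markers, of which Fcgr1 was among those with no count, overlapped between the groups, at 99.8 to 113 CPM in KO libraries and 99.2 to 134 CPM in WT libraries. The 7 dendritic cell markers summed to between 12.8 and 20.8 CPM in KO libraries and between 33.1 and 46.5 CPM in WT libraries; the median log2 fold change of the 5 tested was -1.19, and -0.79 without WT replicate 1. The 4 plasma cell markers summed to between 191 and 216 CPM in KO libraries and between 250.1 and 271 CPM in WT libraries, and 1 of them fell by edgeR. Their median log2 fold change was near 0, at -0.08. It was -0.34 without WT replicate 1 and 0.05 without WT replicate 2. The 5 erythroid markers matched to the tables summed to between 3.08 and 6.86 CPM in KO libraries and between 32.3 and 127 CPM in WT libraries, and 2 of 4 tested fell by edgeR (1 without WT replicate 1). Higher in KO libraries, as were Slfn1, Slfn3 and Slfn9, were the summed T cell and NK cell markers. The 5 NK cell markers summed to between 96.3 and 108 CPM in KO libraries and between 74.0 and 87.2 CPM in WT libraries, and 1 of them rose by edgeR. They did not all go one way: at an unadjusted p under 0.05 by edgeR, 1 was higher and 1 was lower. The 7 T cell markers summed to between 1926 and 1972 CPM in KO libraries and between 1219 and 1438 CPM in WT libraries, and 3 of them rose by edgeR (2 without WT replicate 1). The part of these cells in the levels of the Schlafen genes was not tested.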

How the data were processed

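The authors deposited 1 table of whole-number read counts per gene for each of the 4 libraries, not normalized. The submitters' processing notes name Subread 2.0.1 with featureCounts, DESeq2 1.30.1, R 4.0.4 and the build mm10. The sources used here give no aligner settings, strand use or read length. Members and lists were chosen with earlier results of these data known.

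KO was compared with WT in R 4.3.3 by the quasi-likelihood test of edgeR 4.0.16 (no covariate, filterByExpr with minimum count 10 and minimum total 15, TMM scaling, Benjamini-Hochberg adjustment over all 12752 genes, calls under 0.05). The fit had 4.70 prior degrees of freedom and a common biological coefficient of variation of 21.4%. CPM are counts scaled to TMM-adjusted totals; profiles used log2 CPM with a prior count of 2. DESeq2 1.42.0, limma-voom (limma 3.58.1), other scalings, no filter, a replicate block, summed copies and leaving out each library were alternatives. The libraries of a group differed beyond counting error, their chi-square divided by its degrees of freedom being 15.2 in KO and 37.4 in WT.

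Named genes were all members, their relatives, the 3 nearest profiles of each tested member, and from each list the called genes with the largest change, up to 4, or the 2 of lowest p. Of the lists, type I interferon genes matched 37 of 37 symbols, the ligand list 8 of 8, the rest list 20 of 20, transfer RNA genes 11 of 12, flanking genes 22 of 38 and relatives 4 of 6. Positions, exons and coding sequences came from GENCODE M21 (GRCm38), and promoters from RefSeq (GRCm38.p6). Identity was planned between proteins and was computed between coding sequences instead.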

Additional observations from a re-analysis of the deposited data

How the results depend on the processing

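No member changed sign under any alternative, and Slfn3 passed the threshold in none; the summed copies, fitted with all libraries and with each left out, passed it in none of these fits. Over all genes, 305 were called higher and 199 lower; the counts were 737 and 682 with no filter, 805 and 744 with DESeq2, and 122 lower with upper quartile factors. Leaving out 1 library gave 0 to 1432 higher and 0 to 1127 lower; the zeros are the fits with 1 KO library, where 760 higher and 845 lower (without KO replicate 1) and 1082 and 1079 (without KO replicate 2) had an unadjusted p under 0.05. With no filter 18347 genes were tested, of which 737 were called higher and 682 lower. Of the 7 members, 1 was then called higher and 3 lower: Slfn1 at 0.89, Slfn2 at -0.78, Slfn5 at -2.52 and Slfn8 at -0.98. DESeq2 called the same 4, 1 higher and 3 lower, at 0.90, -0.77, -2.52 and -0.97 (adjusted p = 0.0272, 0.0172, 0.00175 and 0.0224). Leaving out 1 library gave 0 to 1 members higher and 0 to 3 lower, with log2 fold changes of 0.52 to 1.43 for Slfn1, 0.46 to 0.93 for Slfn3, -1.05 to -0.41 for Slfn2, -3.26 to -0.87 for Slfn5, -1.32 to -0.50 for Slfn8 and 0.19 to 1.81 for Slfn9. Leaving libraries out of the summed fits, chosen after seeing the data, gave 0.41 to 0.86 for Slfn3 with Slfn4 and -0.30 to -0.07 for Slfn8, Slfn9 and Slfn10-ps. Slfn4 entered only the fits with no filter, by DESeq2, and without WT replicate 2 or either KO replicate, and was called in none.

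Same-numbered libraries did not deviate together (correlation 0.0397 over 12752 genes), so the numbers are not known to pair them. With the replicate block 488 of the 12752 genes were called higher and 401 lower. Of the 6 tested members, 2 were called lower: Slfn2 at -0.74 (adjusted p = 0.0426 by edgeR) and Slfn8 at -0.93 (adjusted p = 0.0355 by edgeR). Under the 4 scalings the median of all genes lay between -0.0521 (library size only) and 0.00293. With 2 libraries a group the exact permutation test of a single value cannot reach the threshold. Slfn4 and, in KO libraries, Slfn5 rest on few counts. The cause of these shifts was not tested.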

Other observations

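The remaining relatives of the family were nearly silent. Slfn14, a long Schlafen gene next to the cluster and known in the mouse for a role in platelets and red cells, had 0 and 0 counts in KO libraries, against 7 and 0 counts in WT libraries. Slfnl1 on chromosome 4 had 0 and 0 counts in KO libraries, against 0 and 2 in WT libraries. The 7 counts of Slfn14 were in WT replicate 1, the library in which the erythroid markers were also highest, at 127 CPM. That library was the highest for 32.6% of all genes tested, and the source of these counts was not tested.

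Of 38 genes annotated within 250 kb of the members, 22 were matched and 11 tested; edgeR called 0, with 2 negative at an unadjusted p under 0.05 (12.7% of all genes), DESeq2 called 2 of 12 lower (11.9% of all genes in either direction) and limma-voom 1 lower (4.65%). The 2 of lowest p were Nle1, a ribosome assembly factor (-0.97, adjusted p = 0.0591 by edgeR), with 38.3 and 57.0 CPM in KO libraries, against 99.0 and 88.0 CPM in WT libraries, and Lig3, a DNA ligase (-0.74, adjusted p = 0.0713 by edgeR). The median of the 11 genes was -0.21, and -0.05 over 13 tested without WT replicate 1.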
